A study of Mus musculus with 13 samples.

Results

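Glutamate and GABA carry most fast excitatory and inhibitory signals between neurons, and the 48 genes described here encode their receptors. They are the protein-coding genes of the mm9 annotation GENCODE vM1 named Gria, Grik, Grin, Grid or Grm with a number, Gabr, or Gabbr1 and Gabbr2, and they make up 48 of 22380 protein-coding genes. Of the 48, 26 encode glutamate receptor subunits and 21 encode GABA receptor subunits. The remaining gene, Grid2ip, matches by name and encodes a scaffold protein that binds a delta receptor, not a receptor subunit.

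RNA-DNA hybrids were mapped by DRIP-seq, in which the S9.6 antibody pulls down hybrids from DNA fragmented by 5 endonucleases, namely EcoRI, HindIII, XbaI, SspI and BsrGI, in N2a cells, a mouse neuroblastoma line. Cells had received scramble siRNA (siScramble), siRNA against DDX1, a putative RNA helicase, or siRNA against EXOSC3, a subunit of the RNA exosome that degrades and trims RNA. Each of the 3 groups had 3 untreated libraries and 1 library from DNA digested with RNase H, an enzyme that removes the RNA of hybrids, before the pull-down. The question was which hybrid regions change when either protein is depleted. All cells came from the same line, and the siRNA was the sole difference stated between groups. A peak list holds no transcript or protein level, so depletion of the targets could not be checked in these data.

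The sample titles and the names of the peaks gave different siRNAs in all 12 lists, so libraries are grouped by title and called labelled siScramble, siDDX1 or siEXOSC3. Peaks named siDDX1 stood under siScramble titles, peaks named siEXOSC3 under siDDX1 titles and peaks named siScramble under siEXOSC3 titles, and each direction between groups below holds for the titles. The untreated lists held 23882 to 42571 peaks covering 22.0 to 45.3 Mb, and the RNase H lists held 3811 to 8034 peaks covering 2.04 to 4.36 Mb. The background level recovered from each list, a relative measure of depth, was 0.546 to 1.29 in untreated libraries and 1.13 to 1.59 in RNase H libraries. The recovered level fitted 42.6 to 59.2% of the peaks sampled from a list, so it is approximate. The untreated library labelled siDDX1 replicate 1 had the highest untreated level, 1.29. Of 15 neuron and neuroblast markers, 7 had a peak in all untreated libraries (among them Phox2a, Hand2, Gata2, Chga, Tubb3 and Elavl4), where 4.14 would have at the shares of all protein-coding genes of like length, and 4 had no untreated peak (Th, Stmn2, Nefl and Nefm). A peak in all untreated libraries was present in 0 of 4 astrocyte, 2 of 4 oligodendrocyte (Mog and Sox10), 0 of 4 microglia and 0 of 4 fibroblast markers, where those shares give 1.11 to 1.31 a list. A peak is a hybrid call and not an expression level.

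Ionotropic glutamate receptors (AMPA, kainate and NMDA types) are cation channels, and the metabotropic type acts through G proteins. GABA-A receptors, among them those made of rho subunits, are chloride channels, whereas GABA-B receptors signal through G proteins. R-loops, in which nascent RNA pairs with the template strand and leaves the other DNA strand unpaired, are known to form where G-rich RNA is transcribed, often near gene starts rich in G and C.

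The DNA just upstream of a gene's outermost start is shown for 4 genes with a peak inside that window in at least 2 of 9 untreated libraries, followed by Gria2, an AMPA subunit gene with no peak in any library, for contrast. Each sequence is 200 bases of mm9 in the direction of the gene, and capitals mark every run of GGGG or its complement CCCC. In order, the windows are chr17:37182711-37182910 (plus strand), chr10:79433260-79433459 (plus), chr7:25857389-25857588 (minus), chr7:53126299-53126498 (minus) and chr3:80606714-80606913 (minus).
Gabbr1: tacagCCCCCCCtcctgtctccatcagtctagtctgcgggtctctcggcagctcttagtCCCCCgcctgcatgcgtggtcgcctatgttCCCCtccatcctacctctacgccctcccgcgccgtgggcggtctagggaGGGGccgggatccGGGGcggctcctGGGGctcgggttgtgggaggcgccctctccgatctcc
Grin3b: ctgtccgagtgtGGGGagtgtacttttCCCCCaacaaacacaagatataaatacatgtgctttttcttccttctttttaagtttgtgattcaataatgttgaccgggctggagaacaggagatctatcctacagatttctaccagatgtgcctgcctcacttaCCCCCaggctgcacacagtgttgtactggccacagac
Grik5: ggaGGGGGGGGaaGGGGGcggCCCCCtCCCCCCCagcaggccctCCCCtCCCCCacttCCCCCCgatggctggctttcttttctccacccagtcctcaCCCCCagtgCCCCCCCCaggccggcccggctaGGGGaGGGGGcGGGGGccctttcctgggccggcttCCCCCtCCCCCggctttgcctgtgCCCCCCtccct
Grin2d: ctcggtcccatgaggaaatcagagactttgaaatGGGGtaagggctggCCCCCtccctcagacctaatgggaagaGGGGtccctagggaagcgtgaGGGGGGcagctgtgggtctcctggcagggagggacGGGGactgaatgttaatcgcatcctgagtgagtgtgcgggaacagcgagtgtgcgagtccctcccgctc
Gria2: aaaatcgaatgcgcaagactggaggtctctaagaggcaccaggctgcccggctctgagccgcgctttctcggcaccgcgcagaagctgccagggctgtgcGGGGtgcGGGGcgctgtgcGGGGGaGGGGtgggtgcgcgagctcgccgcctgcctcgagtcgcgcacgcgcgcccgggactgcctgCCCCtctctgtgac

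Peaks reached into the windows of Gabbr1 and Grin3b in 8 of 9 untreated libraries each, of Grin2d in 3 and of Grik5 in 2, and into none of the 5 windows after RNase H. Their G + C content was 69.0% for Gabbr1, 45.5% for Grin3b, 76.5% for Grik5 and 61.0% for Grin2d, against 71.0% for Gria2. A window rich in G and C was thus present with and without a peak. GGGG or CCCC stood at least once in 44 of 48 receptor gene windows (91.7%) and in 80.3% of all 22380 protein-coding windows. The match is a description of letters and marks no site.

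A gene was called in a library when a peak overlapped its bounds extended by 1 kb on each side. Of the 48 genes, 7 were called in 9 of 9 untreated libraries, where 26.2% of all protein-coding genes were. They were Grik5, a kainate receptor subunit gene, Grin1, the obligate NMDA receptor subunit gene, Grin3b, a glycine-binding NMDA subunit gene, Grid1, a delta receptor gene, Grm5, a group I metabotropic receptor gene, Gabbr1, the ligand-binding GABA-B subunit gene, and the scaffold gene Grid2ip. Another 6 genes were called in 1 to 8 libraries, among them Grin2d in 8, Grin2c in 6, Gabra3 in 5, Gabrg1 in 2 and Gria1 in 1. Together 13 genes were called in at least 1 untreated library, against 49.9% of all protein-coding genes.

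The remaining 35 genes had no peak in any untreated library. Among AMPA subunits these were Gria2, Gria3 and Gria4, among kainate subunits Grik1, Grik2, Grik3 and Grik4, and among NMDA subunits Grin2a, Grin2b and Grin3a. Of 8 metabotropic glutamate receptor genes, 7 were without a peak (among them Grm2, Grm3, Grm4, Grm6, Grm7 and Grm8). Of 16 GABA-A genes, 13 were without a peak (among them Gabra2, Gabra4, Gabra5, Gabra6, Gabrb1, Gabrb2, Gabrd, Gabre, Gabrg3, Gabrp and Gabrq), as were all 3 rho genes (Gabrr1, Gabrr2 and Gabrr3) and the GABA-B gene Gabbr2. Glutamate receptor subunits were called in 9 of 9 libraries for 5 of 26 genes and GABA receptor subunits for 1 of 21.

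Receptor genes are long, with a median of 126 kb and a range of 6.48 to 1412 kb, against a median of 15.4 kb over all protein-coding genes. Had they been called at the share of all protein-coding genes in the same of 5 length classes, 12.4 of them would have been called in 9 of 9 untreated libraries and 26.6 in at least 1. The counts were 7 and 13. In the class of 100 to 300 kb, 0 of 10 receptor genes were called in 9 of 9 libraries, beside 27.5% of the class, and at 300 kb and over 2 of 16 were, beside 16.7%. Fewer receptor genes held an untreated peak than genes of like length in each class from 10 kb upward, while the class under 10 kb held the single gene Grin3b, which was called. These counts describe the list and carry no test.

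**Figure D1:**
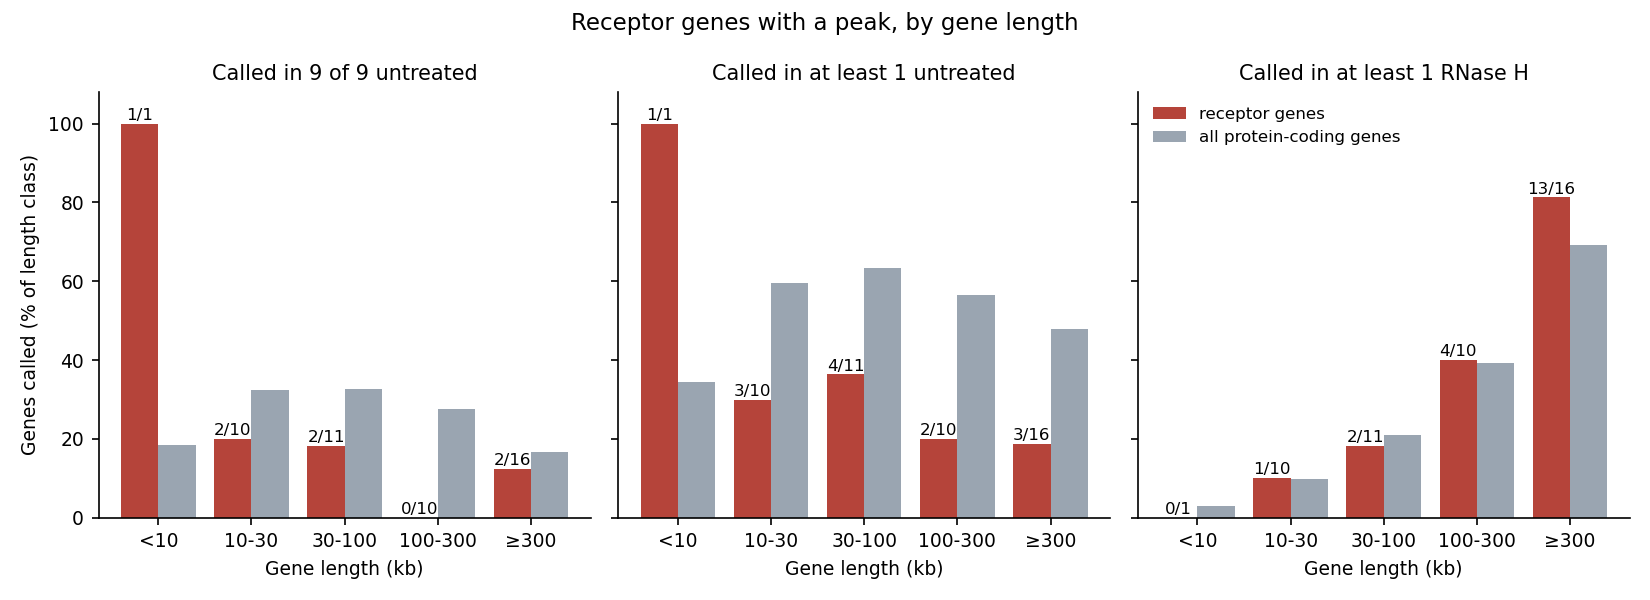
Share of genes called (vertical axis, percent of the length class) in 5 classes of gene length (horizontal axis, kb) for receptor genes (red, with counts above the bars) and all protein-coding genes (grey). In untreated libraries the red bars stand below the grey ones in the 4 classes from 10 kb upward, and in RNase H libraries both rise with length, to 13 of 16 receptor genes and 69.3% of all genes at 300 kb and over.

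The 5 genes with the most covered bases per kb were, in order, Grin3b, Gabbr1, Grik5, Grin1 and Grid2ip, with mean untreated values of 826, 159, 132, 94.1 and 64.2 bases per kb of extended gene. Within their length classes these exceeded the values of 97.6%, 79.3%, 89.8%, 71.0% and 79.8% of protein-coding genes. Where the peaks lay differed from gene to gene.

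Gabbr1 (chr17:37182911-37212012, plus strand) had its broadest region at the start, at chr17:37182624-37185988, with a peak in 9 of 9 untreated libraries and in 0 of 3 RNase H libraries. That region ran from a BsrGI to an SspI cut and had the same edges in 5 libraries. A peak lay within 1 kb of the outermost start in 8 of 9 libraries. Further regions toward the end of the gene were called in up to 7 libraries.

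Grin3b (chr10:79433460-79439935, plus strand) lay inside a single merged region of 13377 bases, chr10:79429493-79442869, which ran beyond the gene on both sides and ended at XbaI cuts. It was the only receptor gene with a peak within 1 kb of its outermost start in 9 of 9 untreated libraries, where 11.2% of all protein-coding genes had one. The region also overlapped ORF61, a protein-coding gene on the opposite strand, and since the peaks carry no strand, hybrids of the 2 genes cannot be told apart.

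Grik5 (chr7:25794872-25857388, minus strand) carried many separate regions along the gene. Those at chr7:25795942-25797185, chr7:25828283-25835737 and chr7:25851680-25855565 were called in 9 of 9 untreated libraries, and a region over the start, chr7:25855780-25862674, in 7. Grin1 (chr2:25146701-25174707, minus strand) had no peak within 1 kb of its outermost start in any library. Its main region, chr2:25146610-25153852, lay in the last part of the gene, about 24.5 kb from that start. The region came within 1 kb of another annotated start of Grin1, and 8 of 9 untreated libraries had a peak within 1 kb of an annotated start. It overlapped Lrrc26 and the antisense transcript gene E130003G02Rik, so the source of these hybrids cannot be told apart. Grid2ip had no peak near a start, and its regions with most calls, chr5:144139796-144143004 over exons and chr5:144152865-144154722 at the gene end, were each called in 8 of 9 untreated libraries.

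**Figure D2:**
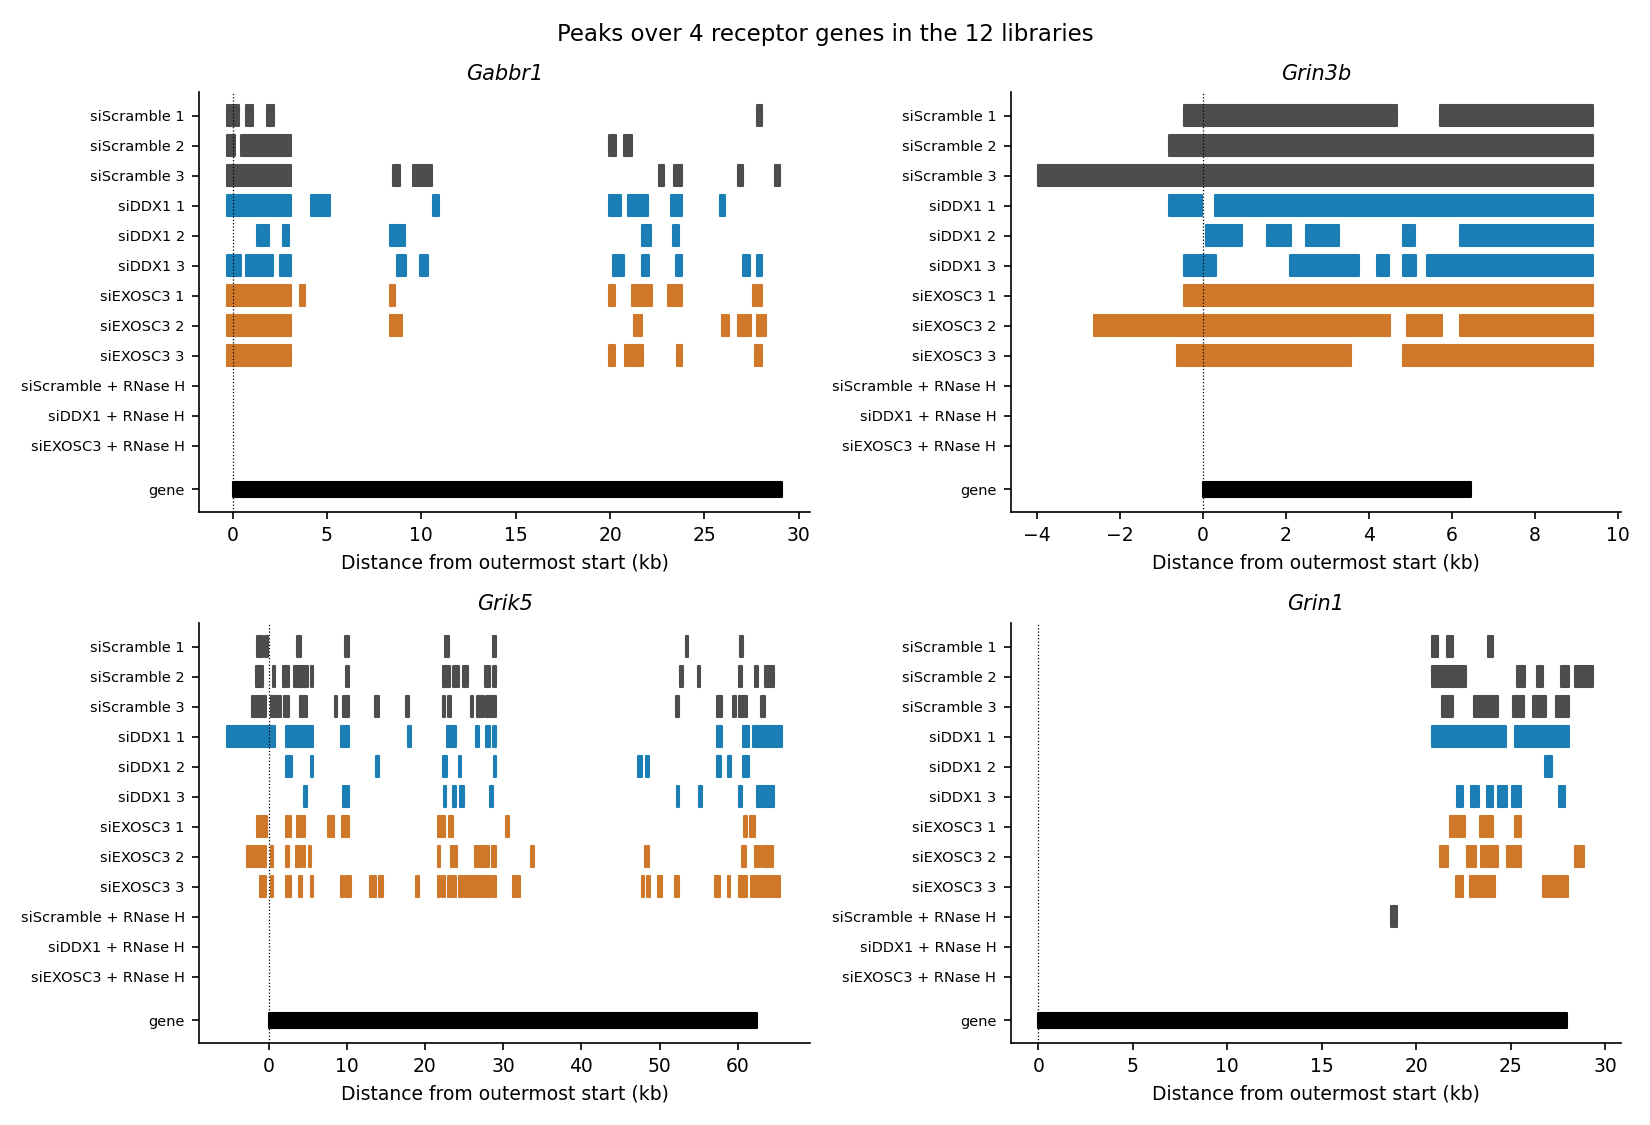
Peaks of the 12 libraries (rows) over Gabbr1, Grin3b, Grik5 and Grin1, by distance from the outermost start in kb (horizontal axis, in the direction of the gene), with the gene as a black bar and colours for the library title. Peaks of Gabbr1 and Grin3b cross or touch the start in most untreated libraries, those of Grin1 lie more than 15 kb inside, and the 3 RNase H rows are empty but for 1 peak in Grin1.

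Over all receptor genes, 7 had a peak within 1 kb of any annotated start in at least 1 untreated library and 2, Gabbr1 and Grin3b, in 9 of 9, where 38.9% and 15.1% of all protein-coding genes did. For the outermost start alone the genes included Grin3b in 9 libraries, Gabbr1 in 8, Grik5 in 7, Grin2d in 6 and Grin2c in 1.

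The number of receptor genes called in each library was 10, 10 and 11 in libraries labelled siScramble, 12, 9 and 7 in those labelled siDDX1, and 11, 11 and 11 in those labelled siEXOSC3. The groups labelled siScramble and siDDX1 overlapped, and the values labelled siEXOSC3 lay within the range of both others. Bases covered over all 48 genes were 28.1 ± 10.3 kb, 26.9 ± 16.5 kb and 35.5 ± 7.30 kb (SD, n = 3 each), in the same order of groups. Single libraries covered 16.3, 33.0 and 35.1 kb in siScramble, 45.7, 14.7 and 20.4 kb in siDDX1, and 31.3, 31.3 and 43.9 kb in siEXOSC3, so the ranges of the 3 groups overlapped.

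Covered bases of single genes were compared across the 3 groups with an exact permutation test (F statistic, all 280 divisions of the 9 libraries into groups), adjusted over 11103 genes. Of 13 receptor genes that could be tested, 0 passed after adjustment, as did 0% of all genes, and 0 had an unadjusted p under 0.05, beside 2.8% of all genes (311). limma, on the 11 receptor genes and 9675 genes called in at least 3 libraries, likewise gave 0 after adjustment, with 0 receptor genes and 437 genes at an unadjusted p under 0.05. The smallest p the permutations can give is 0.00357, and the smallest for a pair of groups is 0.1. At a p of 0.00357 a gene passes the adjustment over 11103 genes only if many other genes reach that p too. The 0 after adjustment by permutation therefore says little about single genes.

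Grin3b had the lowest p of the receptor genes. Its covered bases were 6909, 8283 and 8476 in libraries labelled siScramble, 7957, 3815 and 5162 in siDDX1, and 7943, 7624 and 6866 in siEXOSC3. The value 8476 is the whole extended gene, and peaks ran past it in every untreated library, so these values are capped. Uncut, the peaks held 8843, 10217 and 13377 bases in siScramble, 9891, 5749 and 7096 in siDDX1, and 9877, 11185 and 8800 in siEXOSC3. Both low values belonged to siDDX1, but the third siDDX1 library lay among the others, and the groups overlapped (exact permutation p = 0.146, adjusted p = 1, on the capped values).

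Grin2c, an NMDA subunit gene best known from the cerebellum, had 0, 865 and 294 covered bases in siScramble, 255, 0 and 0 in siDDX1, and 677, 805 and 264 in siEXOSC3 (exact permutation p = 0.261, adjusted p = 1). A single siDDX1 library, replicate 1, held a peak, and the groups overlapped.

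Gabbr1 had 1653, 3890 and 5958 covered bases in siScramble, 7248, 2558 and 5564 in siDDX1, and 6524, 5894 and 5279 in siEXOSC3 (exact permutation p = 0.482, adjusted p = 1). Grik5 had 3001, 8627 and 11353 in siScramble, 11977, 4963 and 4690 in siDDX1, and 6823, 8153 and 16894 in siEXOSC3 (exact permutation p = 0.668, adjusted p = 1). Libraries of 1 group differed here by more than 2-fold. Grin1 had 860, 3511 and 3751 in siScramble, 6738, 377 and 2293 in siDDX1, and 1839, 3008 and 3041 in siEXOSC3 (exact permutation p = 0.971, adjusted p = 1). Grid2ip had 704, 3653 and 1168 in siScramble, 4519, 619 and 1230 in siDDX1, and 3320, 1690 and 4373 in siEXOSC3 (exact permutation p = 0.582, adjusted p = 1). In each of these 4 genes the highest siDDX1 value came from replicate 1, the untreated library with the highest background level, whose part in the values was not tested.

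No receptor gene was called in 3 of 3 libraries of one group and 0 of 3 of another, in any of 6 directions. Over all protein-coding genes the shares were 0.0894% for siDDX1 over siScramble and 0.116% for the reverse, 0.429% for siEXOSC3 over siScramble and 0.0849% for the reverse, and 0.371% for siEXOSC3 over siDDX1 and 0.0983% for the reverse. Without siDDX1 replicate 1, 2 receptor genes, Grin2c among them, were called in all siEXOSC3 and no siDDX1 library, and 1 in all siScramble and no siDDX1 library. With a library left out the rule is easier to meet, so the shares above do not apply to these counts. Their share over all protein-coding genes is not given, so they show no excess among receptor genes.

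**Figure D3:**
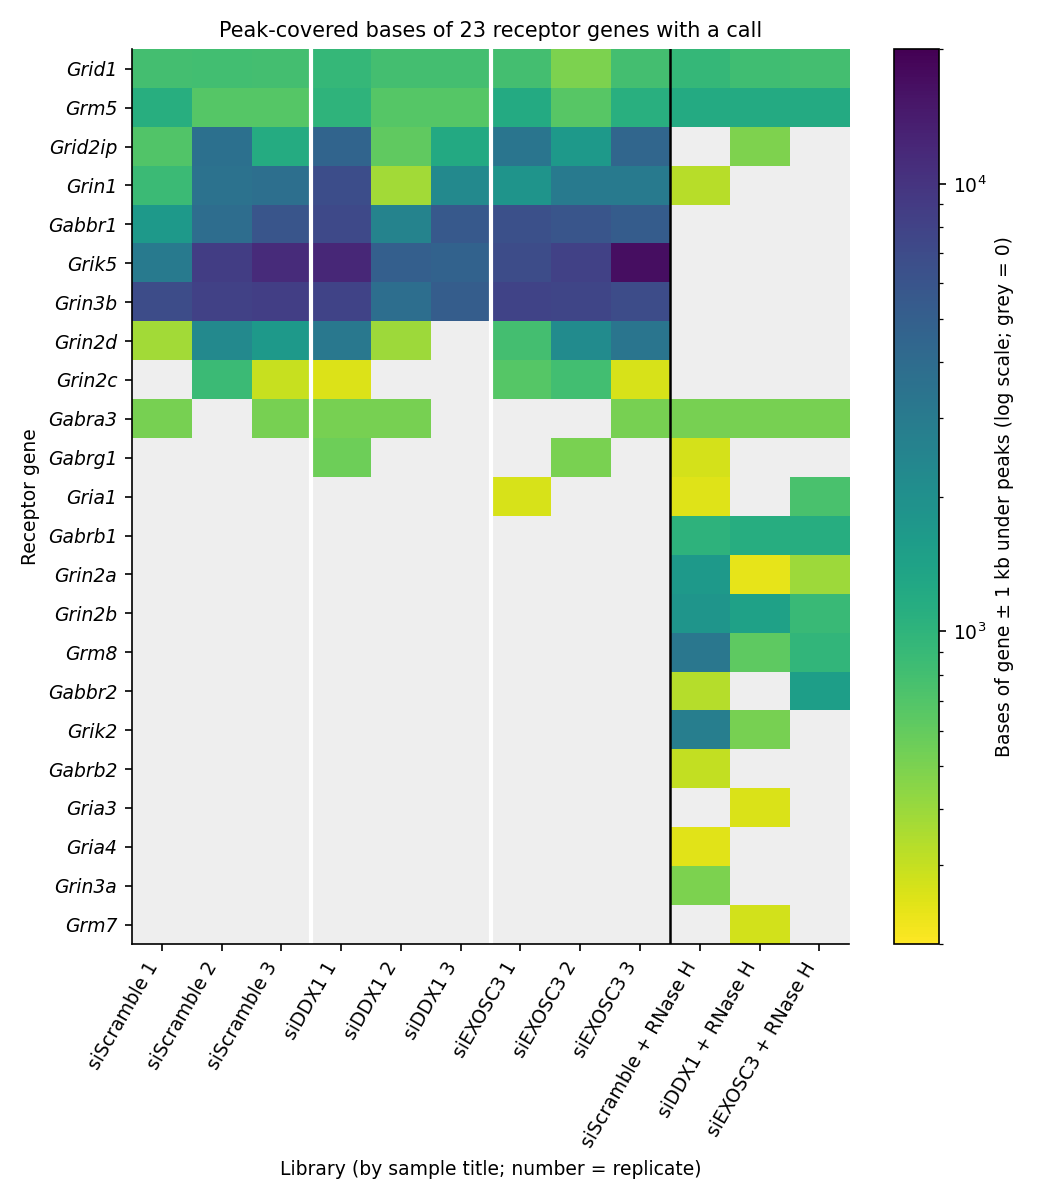
Bases of each gene, extended by 1 kb on each side, that lay under peaks (colour, log scale, grey for 0) for 23 receptor genes called in at least 1 library (rows) in 9 untreated and 3 RNase H libraries (columns). The upper 12 genes had untreated peaks, the lower 11 were called in RNase H libraries only, and Grid1 and Grm5 were called in all 12 libraries.

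RNase H digestion is the control for hybrids, so peaks of hybrids would be lost after it. Covered bases on the scale log2(bases + 100) were compared between RNase H and untreated libraries within groups by an exact two-sided permutation test with 64 assignments, adjusted over 12124 genes. Of 26 receptor genes tested, 5 were lower after RNase H, beside 46.9% of all genes, and 5 were higher, beside 2.05% of all genes. Of these 26, 13 had no untreated peak and so could not be lower, as was true of 960 of the 12124 genes. The shares of lower genes therefore rest on unlike sets. The smallest p these assignments can give is 0.0156, which after adjustment is 0.0319, and all 10 genes had that value.

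The 5 lower genes were Grik5, with a log2 difference of RNase H minus untreated of -6.25, Grin3b with -6.11, Gabbr1 with -5.54, Grin1 with -3.84 and Grid2ip with -3.46. Grik5, Grin3b and Gabbr1 had 0 covered bases in 3 of 3 RNase H libraries. Grin1 had 1 peak of 326 bases in the siScramble RNase H library, outside its untreated region, and Grid2ip 486 bases in the siDDX1 RNase H library. By length, 1 of 1 receptor gene under 10 kb was lower, beside 51.7% of genes there, 2 of 3 at 10 to 30 kb, beside 51.3%, and 2 of 4 at 30 to 100 kb, beside 45.7%. At 100 to 300 kb, 0 of 5 were lower, beside 35.4%, and at 300 kb and over 0 of 13, beside 14.8%. Only 2 of the receptor genes at 100 to 300 kb and 3 at 300 kb and over had an untreated peak that could be lost. Grin2d, without a peak after RNase H, had a log2 difference of -3.46 and did not pass (adjusted p = 0.0547 by the same exact permutation test).

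The 5 higher genes had no peak in 9 of 9 untreated libraries and a peak in 3 of 3 RNase H libraries, a pattern seen in 0.661% of all protein-coding genes. Among them were Grin2a and Grin2b, genes of the glutamate-binding NMDA subunits that prevail in the forebrain, Grm8, a group III metabotropic receptor gene, and Gabrb1, a GABA-A beta subunit gene. After RNase H, with values in the order siScramble, siDDX1 and siEXOSC3, Grin2b had 1797, 1437 and 878 covered bases and a log2 difference of 3.83. Grm8 had 3203, 630 and 966 (3.78), Gabrb1 had 1018, 1127 and 1131 (3.57) and Grin2a 1700, 238 and 396 (2.75). The calls in 3 of 3 libraries are per gene and need not share a place. Grin2b and Gabrb1 each held a region called in 3 of 3 RNase H libraries. Every Grin2a region was called in 1 RNase H library, and no Grm8 region in more than 2. All 5 genes are longer than 300 kb, where 5 of 13 receptor genes tested were higher, beside 20.1% of genes of that length. With peaks limited to a −log10 q of at least 5, the count of higher genes was 3.

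In all, 20 receptor genes had a peak in at least 1 RNase H library, beside 13.5% of all protein-coding genes. At the shares of their length classes 18.4 would have had one. A further 8 genes shared the pattern of no untreated peak but were called in 1 or 2 RNase H libraries, among them Gabbr2 and Grik2 in 2 and Gabrb2, Gria3, Gria4, Grin3a and Grm7 in 1, with 244 to 2783 covered bases in the libraries that called them. Thus 13 genes were called in RNase H libraries only, beside 4.29% of all genes and 7.13 at the shares of their length classes, and 10 without the RNase H library labelled siScramble, beside 2.49% of all genes. Gria1 and Gabrg1 had scattered peaks in both kinds of library, Gria1 of 265 bases in 1 untreated library and of 250 and 750 in 2 RNase H libraries, and Gabrg1 of 555 and 505 in 2 untreated libraries and of 268 in 1 RNase H library, and their intronic regions did not overlap between the 2 kinds.

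The RNase H libraries had background levels above those of 8 of 9 untreated libraries, and the part of depth in these calls was not tested. No receptor gene had an RNase H peak within 1 kb of a start, where 2.53% of all genes did.

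The receptor genes Grid1 and Grm5 were called in 9 of 9 untreated and 3 of 3 RNase H libraries, as were 1.17% of all protein-coding genes, and Gabra3, a GABA-A alpha subunit gene on the X chromosome, in 5 of 9 and 3 of 3. Each of the 3 genes owed this to a short intronic peak whose most frequent edges stood at restriction cuts. The 40 bases around both edges of each peak are shown from the plus strand of mm9, with the recognition site cut at the edge in capitals, to let the fragment ends be seen. The peaks were chr7:94778792-94779460 in Grm5, chr14:35867647-35868432 in Grid1 and chrX:69784487-69785002 in Gabra3.
Grm5 left edge, SspI: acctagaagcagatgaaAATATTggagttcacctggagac
Grm5 right edge, XbaI: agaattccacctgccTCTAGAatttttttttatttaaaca
Grid1 left edge, EcoRI: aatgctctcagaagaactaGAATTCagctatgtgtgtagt
Grid1 right edge, EcoRI: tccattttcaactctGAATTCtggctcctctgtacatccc
Gabra3 left edge, EcoRI: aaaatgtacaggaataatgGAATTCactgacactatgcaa
Gabra3 right edge, SspI: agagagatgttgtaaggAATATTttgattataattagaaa

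The Grm5 peak of 669 bases had these exact edges in 10 of 12 libraries and the Gabra3 peak of 516 bases in 8. The Grid1 peak of 786 bases had them in 6, all untreated. In the RNase H libraries the Grid1 peaks had the same right edge but other left edges. They spanned 932, 816 and 788 bases in siScramble, siDDX1 and siEXOSC3. The fold enrichment that the authors' peak caller gave over local background at the Grm5 peak was 20.9, 27.2 and 16.8 in untreated libraries labelled siScramble, 20.5, 9.84 and 13.6 in siDDX1, and 15.5, 7.69 and 8.22 in siEXOSC3. In the RNase H libraries of these groups it was 60.6, 38.3 and 70.0. Every RNase H value lay above every untreated one. A constant is added to both parts of this ratio, so the fold, here and at the peaks below, also depends on depth. Background levels were 1.13 to 1.59 in RNase H libraries and 0.546 to 1.29 in untreated ones, and the part of depth was not tested.

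At the Grid1 peak the fold enrichment was 4.89 to 11.4 in untreated libraries and 16.5 to 18.2 after RNase H. At the Gabra3 peak it was 4.82 to 7.62 in the 5 untreated libraries with a call and 12.5 to 21.6 after RNase H. The ranges did not overlap in either gene. Covered bases did not pass the test in these genes, with log2 differences of RNase H minus untreated of 0.13 for Grid1 (adjusted p = 0.371), 0.48 for Grm5 (adjusted p = 0.143) and 1.17 for Gabra3 (adjusted p = 0.615, all by the exact permutation test for RNase H). A second Grm5 region, chr7:94980034-94980571, was called in 4 untreated and 3 RNase H libraries. Its fold enrichment was 3.88 to 9.48 in those untreated libraries and 5.15 to 15.4 after RNase H, so these ranges overlapped. With untreated peaks that overlap any RNase H peak left out, 5 receptor genes were still called in 9 of 9 untreated libraries, namely Gabbr1, Grid2ip, Grik5, Grin1 and Grin3b, beside 25.5% of all protein-coding genes, and Grid1 and Grm5 were not.

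**Figure D4:**
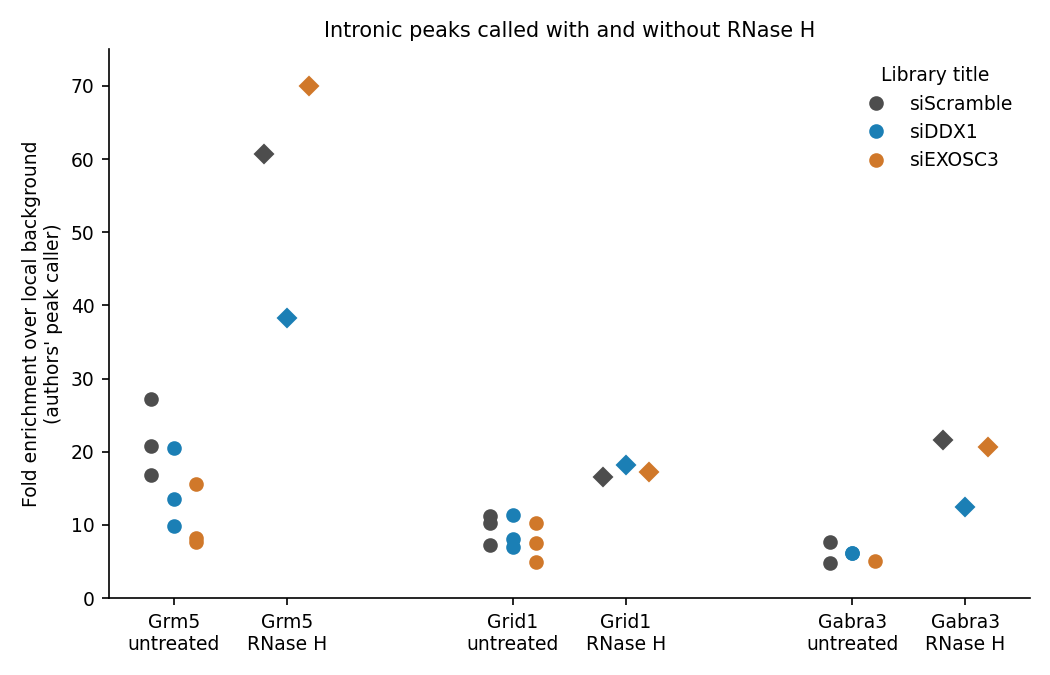
Fold enrichment over local background as given by the authors' peak caller (vertical axis, linear) at the intronic peaks of Grm5, Grid1 and Gabra3 in untreated libraries (circles) and RNase H libraries (diamonds), coloured by library title. Libraries without a call and the second Grm5 region are not drawn, and in each gene every diamond lies above every circle. The fold also depends on depth, which differed between libraries.

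Merged over libraries, receptor genes held 59 regions called in untreated libraries only, 34 called in RNase H libraries only and 5 called in both. Of the 59, 16 lay within 1 kb of a start, 6 within 1 kb of the gene end, 13 over an exon and 24 in introns, and they came from 10 genes. Of the 34, 32 lay in introns, 2 over an exon and 0 near a start, and they came from 16 genes. The median G + C content was 52.8% (38.1 to 64.1%) in untreated regions and 40.1% (28.9 to 52.3%) in RNase H regions. Regions were pooled over genes, and Grik5 and Gabbr1 held more of the untreated regions than the other genes together, so the untreated median mostly describes these genes. Of the 34 RNase H regions, 24 were called in 1 library and 3 in 3 of 3, and of the 59 untreated regions 25 were called in 1 library and 6 in 9 of 9.

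**Figure D5:**
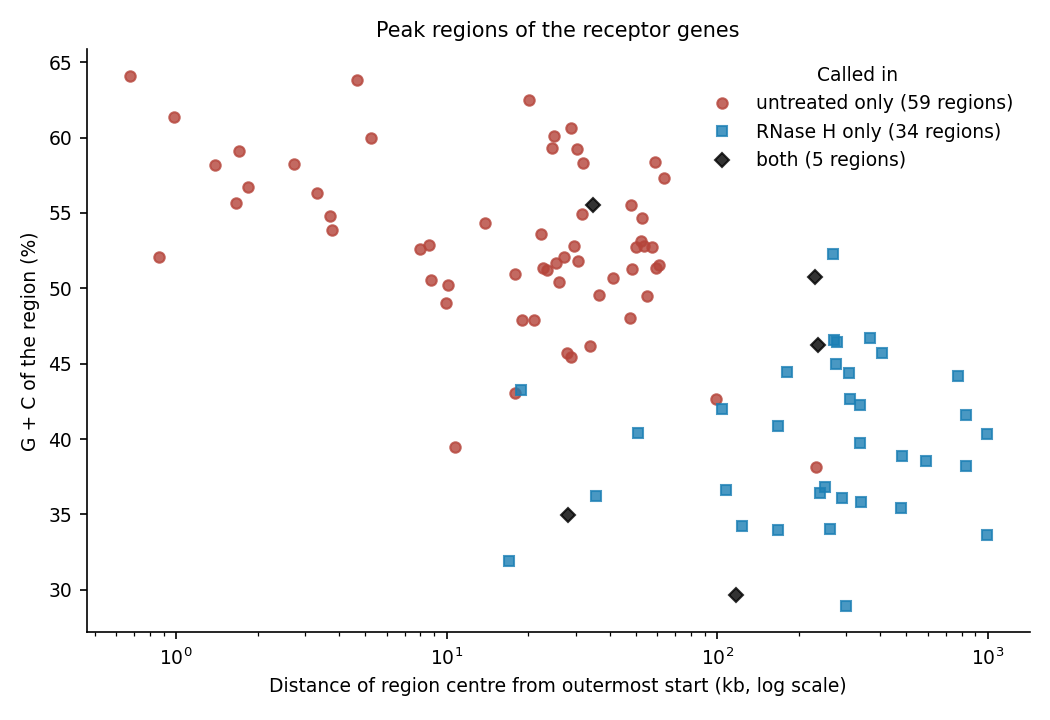
G + C content of each merged region (vertical axis, percent) against the distance of its centre from the outermost start of the gene in either direction (horizontal axis, kb, log scale), for regions called in untreated libraries only, in RNase H libraries only or in both. Untreated regions, most of them from Grik5 and Gabbr1, fill the upper left and RNase H regions the lower right, with medians of 52.8% and 40.1%.

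The same contrast held for whole genes. Median gene G + C was 51.8% for the 6 genes called in untreated libraries only, 38.7% for the 13 called in RNase H libraries only and 42.0% for the 22 in no library, against 40.8% for all 48 and 45.6% for all protein-coding genes. Sites of the 5 restriction enzymes numbered 1.01 per kb in the 6 genes, 2.15 in the 13 and 1.84 in the 22, against 1.51 over all protein-coding genes. All 960 protein-coding genes called in RNase H libraries only had medians of 42.9% G + C and 1.76 sites per kb. The 7 receptor genes called in both kinds of library are in none of these sets. With them, the 13 receptor genes called in any untreated library had medians of 48.8% and 1.44. At least 1 peak edge stood on a restriction cut in 164 of 343 untreated peaks over receptor genes (47.8%) and in 46 of 60 RNase H peaks (76.7%), against 56.5% and 62.2% of all peaks of either kind. Grik5 and Gabbr1 held more of these untreated peaks than the other receptor genes together. A place called in several libraries counts once for each of them here. Among merged regions, at least 1 edge stood on a cut in 31 of 59 called in untreated libraries only. The count was 24 of 34 for regions called in RNase H libraries only and 5 of 5 for those called in both. The parts of base composition and of fragment ends in the RNase H calls were not tested.

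Partners of these receptors at the synapse were examined in the same way. Of 62 genes for transmitter synthesis, transport, scaffolds and auxiliary subunits, 21 were called in 9 of 9 untreated libraries, 13 in 1 to 8 and 28 in none, where 17.6 would have been called in 9 of 9 at the shares of their length classes. Among those called in 9 of 9 were the scaffold and trafficking genes Dlg1, Dlg4, Dlgap4, Shank1, Shank2, Homer3, Grip1, Pick1, Gphn and Gabarap, the transporter genes Slc1a4, Slc38a1 and Slc38a2, and the genes Glul, Abat and Srr of glutamate, GABA and serine metabolism. Cnih2, an AMPA receptor auxiliary subunit gene, and the adhesion genes Nlgn2 and Nrxn2 were also called in 9 of 9. Across the 3 groups 2 of 34 partner genes tested had an unadjusted permutation p under 0.05, beside 2.8% of all genes, and 0 passed after adjustment. After RNase H 20 of 42 partner genes tested were lower, beside 46.9% of all genes, and 6 were higher, beside 2.05%, the latter being Slc1a3, Dlgap1, Dlgap2, Shank3, Cacng2 and Nrxn3. Of these, Dlgap1, Dlgap2 and Nrxn3 are longer than 300 kb, where 20.1% of genes tested were higher, and the others are shorter. Cacng2, which encodes the AMPA receptor partner stargazin, had no untreated peak and 3461, 291 and 639 covered bases in the 3 RNase H libraries.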

How the data were processed

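Per the labels and the study's methods, the authors cut genomic DNA of N2a cells with restriction enzymes, pulled hybrids down with S9.6, aligned reads to mm9 with Bowtie2 2.4.4 and called peaks for each library with MACS2 2.2.6 against an input library. The deposited peak lists give a score, a linear fold enrichment (a ratio to local background, with a constant added to both parts) and −log10 p- and q-values. Read counts were not used here, so the authors' DESeq2 test on read counts was not repeated, and the 1 input sample was not analysed. Depth in reads is unknown, and the background level was recovered from the fold enrichment and −log10 p of each deposited list.

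Gene bounds of GENCODE vM1 were extended by 1 kb and the bases under peaks counted per library. Tests were exact permutation tests with Benjamini-Hochberg adjustment over all protein-coding genes (threshold 0.05), and limma 3.58.1 in R 4.3.3, with trend, on log2(bases + 100). Python 3.11.15, numpy 2.4.6 and scipy 1.17.1 were used, and the code was tested on simulated data. Of 66 pairs of lists, 0 were identical. Per the study's methods, replicates of a condition came from separate culture plates of the same line. Replicate numbers are shared between groups, but deviations of same-numbered libraries correlated between -0.20 and 0.17, so the numbers were not taken as pairs. Groups follow the titles, and tests across the 3 groups keep their values if the peak names are right instead. Named genes were those called in 9 of 9 untreated libraries, all-or-none between groups, lowest in p (5), called after RNase H, densest in covered bases (5), or in no untreated library. Members and lists were chosen with earlier results of these data known. Some receptor, partner and marker genes enter the counts and are not reported here by name.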

Additional observations from a re-analysis of the deposited data

How the results depend on the processing

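Counts of receptor genes were recomputed with peaks at a −log10 q of at least 5, an equal number of peaks per library, no extension or 5 kb of extension, peaks up to 1000 bases apart joined, an overlap of at least 200 bases, another measure or test, and each library left out. The count called in 9 of 9 untreated libraries, 7, ranged from 5 to 9, and from 7 to 8 with 1 library left out. The number given by the shares of length classes, 12.4, ranged from 9.05 to 13.7. Across the 3 groups 0 genes passed under every alternative run and with any library left out (0 to 0). For the permutation test this says little, since its smallest p hardly lets a gene pass the adjustment over all genes. Genes higher after RNase H numbered 3 at a −log10 q of at least 5, and 5 to 7 under the other settings, with 5 to 5 when an untreated library was left out. Genes lower after RNase H numbered 4 to 7, and 5 to 6 with a library left out. All-or-none genes numbered 0 to 2 for siEXOSC3 over siDDX1 and 0 to 1 for siScramble over siDDX1 with a library left out, the 2 and the 1 arising without siDDX1 replicate 1, and 0 to 0 in the other 4 directions. These counts stand without a share over all protein-coding genes. Without that library the unadjusted exact permutation p of Grin3b was 0.0179 (adjusted p = 0.514).

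With the replicate number as a block, 0 receptor genes and 0 of 11103 genes passed after adjustment, and 57 genes had an unadjusted p under 0.05. The smallest p of this test is 0.0278, so it could not pass over all genes. Leaving out untreated peaks that overlap RNase H peaks (5 genes in 9 of 9) and leaving out the RNase H library labelled siScramble (10 genes in RNase H libraries only) were chosen after seeing the data.

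Peak lists have a presence and a height but no reads, so a change in signal within a called region does not show. With 1 RNase H library per group, its spread within a group is unknown. No strand is given.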
